A study of Rattus norvegicus with 24 samples.

Results

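A set of 10 digestive genes of the exocrine pancreas, Cpa1, Cpb1, Cela1, Cela2a, Ctrl, Pnlip, Clps, Pla2g1b, Gp2 and Reg1a, were followed in RNA from the mesenteric arteries of rats, vessels that carry blood to the gut. These 10 genes, of 6455 genes with a probe of a single symbol, were chosen by their measured values: earlier results on the same arrays had shown them far above the other animals in 1 rat and varying together between rats. Their levels, the differences between the groups and their co-variation are therefore given as a description, without a test. Each gene had 1 probe, and each of these probes had enough values to enter the fit over 10228 of the 10399 probes.

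The arteries came from 12 ovariectomised female Sprague Dawley rats, 4 in each of 3 groups, and the question of the study was how an estrogen and an androgen alter gene expression in this vessel bed. One group received estradiol benzoate, an esterified form of the estrogen estradiol, at 0.15 mg per kg per day, another received testosterone at 1 mg per kg per day, and the third received the vehicle, sesame oil. Injections were intraperitoneal and lasted 4 days. All 12 rats, vehicle animals included, had lost their ovaries at 3 weeks of age, had recovered for 2 weeks, and were 5.5 weeks old. Per the labels, the vessels were freed of fat, veins and connective tissue by dissection, and every array reports on a mixture of cells. Each animal's cRNA was put on 2 one-colour CodeLink oligonucleotide arrays, labelled AA and AB, which are technical repeats, and the animal is the unit throughout. Each animal carries the name of its group and the number of its label.

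Acinar cells make up most of the exocrine pancreas. They store digestive enzymes, most of them as inactive precursors, in zymogen granules and release them through the ducts into the gut, where proteases, lipases and amylase break down food. Their enzyme genes are transcribed at very high rates in the pancreas. In the rat the pancreas is a diffuse gland that lies within the mesentery, beside the vessels that were dissected.

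The regions in front of these genes are shown because the genes were chosen for moving together. RefSeq entries on the GRCr8 build, of 250 bases before and 50 bases after the gene start, were found for 8 of the 10 genes, and Cela2a and Clps had none. The 250 bases before the start are printed for an elastase, the lipase, the phospholipase and the chymotrypsin-like protease. Capitals mark TATAAA, the core of the TATA box; TTTCCC or its reverse complement GGGAAA; and CACCTG or its reverse complement CAGGTG. The regions are chr7:133665062-133665311 on the minus strand for Cela1, chr1:267784360-267784609 on the plus strand for Pnlip, chr12:46812654-46812903 on the minus strand for Pla2g1b and chr19:50738980-50739229 on the minus strand for Ctrl.
Cela1: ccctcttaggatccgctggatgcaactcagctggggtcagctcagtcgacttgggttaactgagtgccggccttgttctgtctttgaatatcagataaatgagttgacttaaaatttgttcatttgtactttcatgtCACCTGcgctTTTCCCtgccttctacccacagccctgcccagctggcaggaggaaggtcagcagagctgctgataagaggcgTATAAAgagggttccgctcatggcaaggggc
Pnlip: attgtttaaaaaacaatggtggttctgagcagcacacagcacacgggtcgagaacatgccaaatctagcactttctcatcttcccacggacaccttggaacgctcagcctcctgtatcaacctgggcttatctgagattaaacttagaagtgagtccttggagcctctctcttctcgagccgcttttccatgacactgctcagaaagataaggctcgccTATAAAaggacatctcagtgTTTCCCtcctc
Pla2g1b: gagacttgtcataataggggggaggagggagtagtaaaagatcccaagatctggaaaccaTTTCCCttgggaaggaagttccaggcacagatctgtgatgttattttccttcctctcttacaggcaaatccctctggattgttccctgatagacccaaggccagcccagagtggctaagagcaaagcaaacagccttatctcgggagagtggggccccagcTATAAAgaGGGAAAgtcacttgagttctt
Ctrl: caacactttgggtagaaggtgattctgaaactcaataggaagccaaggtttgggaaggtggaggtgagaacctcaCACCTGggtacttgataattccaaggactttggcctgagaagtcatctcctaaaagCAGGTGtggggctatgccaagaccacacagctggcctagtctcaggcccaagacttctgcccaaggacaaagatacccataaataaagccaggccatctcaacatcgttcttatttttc
In the 8 windows of 300 bases, TATAAA stood on the gene's strand with its first base between positions -40 and -20 in 6 (Cpb1, Cela1, Gp2, Pnlip, Reg1a and Pla2g1b), against 1.37% of all 33469 RefSeq promoter windows. Its first base lay at -31 in Cela1, Gp2 and Pnlip, at -29 in Reg1a and Pla2g1b and at -25 in Cpb1. Ctrl and Cpa1 had no such match. TTTCCC was found on either strand in 4 of 8 windows (25.1% of all) and CACCTG on either strand in 3 of 8 (18.8% of all). Cela1 alone had both, with CACCTG at -113 and TTTCCC at -103, and 4.38% of all windows had both. TATAAA does not overlap either of the other motifs in the printed regions. These are matches of letters only.

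The same animal was highest for all 10 genes. Estradiol benzoate animal 3 was above every other rat for each gene, by 13.8-fold (Gp2) to 28.9-fold (Reg1a) over the next animal, which was estradiol benzoate animal 8 in all 10 cases. Against the median of the vehicle animals, animal 3 was higher by 40.9-fold for Gp2 to 1839-fold for Pnlip. Levels are given below as the deposited scaled intensity, in which the median probe of every array lies just below 1, averaged over both arrays of an animal on the log2 scale. An array level has no common scale between probes, so single levels are compared between animals for the same gene. The brightness of a probe among the others on its array is given only to tell how dim or bright its spot was. Summed levels of a list, given further below, are weighted toward its brightest probes and are compared between animals only.

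The carboxypeptidases trim amino acids from the ends of food proteins. Cpb1, carboxypeptidase B1, which removes basic residues, had 0.0909, 11.6, 0.211 and 0.726 in estradiol benzoate animals 2, 3, 5 and 8, 0.116, 0.0894, 0.398 and 0.104 in testosterone animals 2, 4, 6 and 8, and 0.0785, 0.0803, 0.0913 and 0.212 in vehicle animals 3, 4, 5 and 8. Cpa1, carboxypeptidase A1, had 0.160, 20.6, 0.397 and 0.942 in the estradiol benzoate animals in the same order, 0.195, 0.274, 0.520 and 0.161 in the testosterone animals, and 0.235, 0.265, 0.272 and 0.392 in the vehicle animals. For both genes the groups overlapped, since estradiol benzoate animal 2 lay among the low animals and the vehicle animal with the highest level, number 8, was close to estradiol benzoate animal 5. One testosterone animal, number 6, was above all the vehicle animals for both.

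Cela1 and Cela2a encode elastases and Ctrl a chymotrypsin-like enzyme, serine proteases that cut inside protein chains. Cela1 had 0.131, 11.6, 0.188 and 0.597 in estradiol benzoate animals 2, 3, 5 and 8, 0.0805, 0.0391, 0.229 and 0.0563 in testosterone animals 2, 4, 6 and 8, and 0.0414, 0.0565, 0.0862 and 0.0857 in vehicle animals 3, 4, 5 and 8. It was the only one of the 10 genes for which all 4 estradiol benzoate animals were above all 4 vehicle animals, and the margin of the lowest of them, animal 2, was small beside the distance to animal 3. Cela2a ranged from 0.0456 to 8.77 in estradiol benzoate animals, from 0.0410 to 0.174 in testosterone animals and from 0.0379 to 0.0678 in vehicle animals. Ctrl had 0.0584, 3.44, 0.0950 and 0.163 in the estradiol benzoate animals, 0.0459, 0.0822, 0.0841 and 0.0485 in the testosterone animals, and 0.0808, 0.0849, 0.0715 and 0.0908 in the vehicle animals. For Ctrl, testosterone animal 6 was inside the range of the vehicle animals, and estradiol benzoate animal 5 was barely above it.

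Pnlip, Clps and Pla2g1b act on fat. Pnlip, pancreatic lipase, which splits triglycerides, had 0.0344, 36.2, 0.4995 and 1.67 in estradiol benzoate animals 2, 3, 5 and 8, 0.0287, 0.0352, 0.679 and 0.0279 in testosterone animals 2, 4, 6 and 8, and 0.0166, 0.0167, 0.0226 and 0.332 in vehicle animals 3, 4, 5 and 8. Within each group, then, 1 or more animals stood far above the rest: animals 3, 8 and 5 under estradiol benzoate, animal 6 under testosterone and animal 8 under vehicle. Clps, colipase, which holds the lipase on fat droplets, had 0.0185, 9.69, 0.132 and 0.394 in the estradiol benzoate animals, 0.0162, 0.0128, 0.153 and 0.0123 in the testosterone animals, and 0.0187, 0.0114, 0.0128 and 0.0422 in the vehicle animals. Pla2g1b, the pancreatic phospholipase A2, had 0.0212, 11.3, 0.143 and 0.480 in the estradiol benzoate animals, 0.0214, 0.0071, 0.178 and 0.00626 in the testosterone animals, and 0.0148, 0.0166, 0.0109 and 0.0537 in the vehicle animals. The same 5 animals led in both genes, in the same order, and the other 7 overlapped across the groups. The level of Pnlip in testosterone animal 8 and that of Pla2g1b in testosterone animal 4 rest on 1 array, because the spot on the other array was blank.

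Gp2 is the main membrane glycoprotein of the zymogen granule, and Reg1a encodes a small secreted protein of pancreatic juice. Gp2 had 0.0769, 4.12, 0.115 and 0.299 in estradiol benzoate animals 2, 3, 5 and 8, 0.0738, 0.0719, 0.142 and 0.0782 in testosterone animals 2, 4, 6 and 8, and 0.0942, 0.120, 0.0887 and 0.107 in vehicle animals 3, 4, 5 and 8. Reg1a had 0.0390, 2.89, 0.0657 and 0.1003 in the estradiol benzoate animals in the same order, 0.0441, 0.0429, 0.0859 and 0.0458 in the testosterone animals, and 0.0443, 0.0444, 0.0318 and 0.0491 in the vehicle animals. For both genes animals 3 and 8 of the estradiol benzoate group and animal 6 of the testosterone group were above all vehicle animals, and estradiol benzoate animal 2 was not. Estradiol benzoate animal 5 was above all vehicle animals for Reg1a and within their range for Gp2. The value of Reg1a in testosterone animal 4 rests on 1 array.

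**Figure D1:**
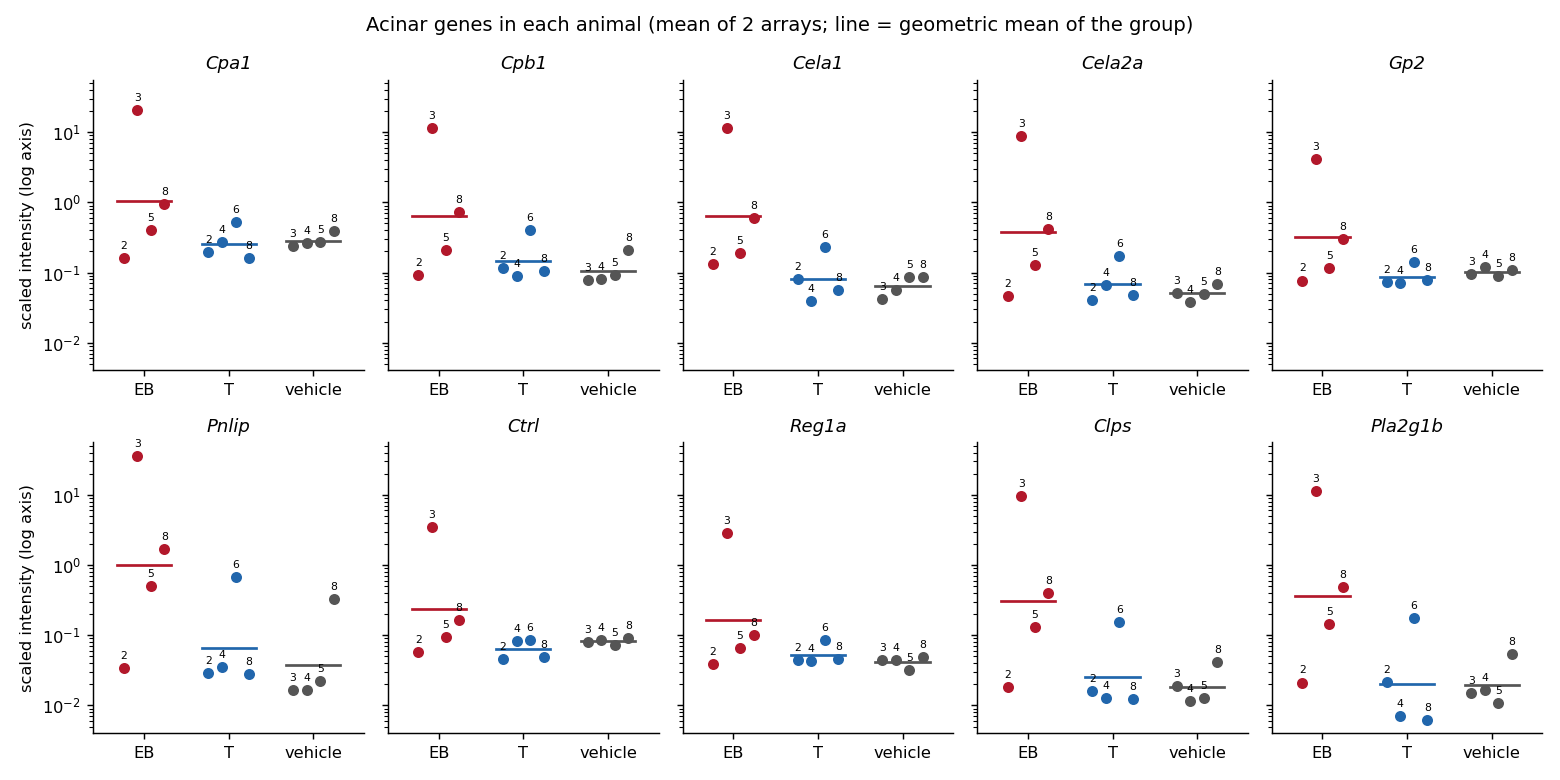
Level of each of the 10 acinar genes in the 12 rats, as scaled intensity on a log axis, with the groups in the order estradiol benzoate, testosterone and vehicle, 1 numbered point per animal and a line at the geometric mean of the group. Estradiol benzoate animal 3 is the highest point for all 10 genes and animal 8 of the same group the next highest.

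To order the animals over all 10 genes, each gene's log2 levels were centred on their mean over the 12 rats and averaged within a rat. Estradiol benzoate animal 3 had a mean of 6.25, followed by estradiol benzoate animal 8 with 1.87, testosterone animal 6 with 0.80, estradiol benzoate animal 5 with 0.45 and vehicle animal 8 with -0.18. The other 7 animals, of all 3 groups, lay between -1.51 and -1.15 and so cannot be ordered against the spread among them. Estradiol benzoate animals 3 and 8 exceeded every vehicle animal for 10 of 10 genes, testosterone animal 6 for 9, estradiol benzoate animal 5 for 8 and estradiol benzoate animal 2 for 1 (Cela1). The 3 remaining testosterone animals did so for 0. For single rats the share of all probes above every vehicle animal was not taken. The genes were also chosen on these values, so nothing is read from these counts.

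The technical repeats show how well these levels were measured. The median absolute log2 difference between arrays AA and AB over the genes was 0.05 in estradiol benzoate animal 3, 0.06 in estradiol benzoate animal 8, 0.08 in estradiol benzoate animal 5, 0.13 in testosterone animal 6 and 0.17 in vehicle animal 8. In the other 7 animals it was 0.18 to 0.54, and the largest single difference was 2.44, for Pla2g1b in vehicle animal 5. The levels of estradiol benzoate animals 3, 5 and 8 and testosterone animal 6 were thus repeated closely on the second array. The low levels scattered more. In vehicle animal 8 the largest difference was 0.70, and its median was close to the 0.18 of testosterone animal 2, a low animal. In estradiol benzoate animal 3 all 10 probes were brighter than the array median and 7 were among the brightest 10% of its probes. In estradiol benzoate animal 2, testosterone animals 2, 4 and 8 and vehicle animals 3, 4 and 5, between 3 and 6 of the 10 probes were among the dimmest 10%, and in vehicle animal 8 this was 1. The deposited table holds no detection call, so whether a dim spot was above background is not known here, and a fold change over the low animals depends on how those dim values were set. All values of these 10 probes were above 0, and 3 of the 240 were blank.

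**Figure D2:**
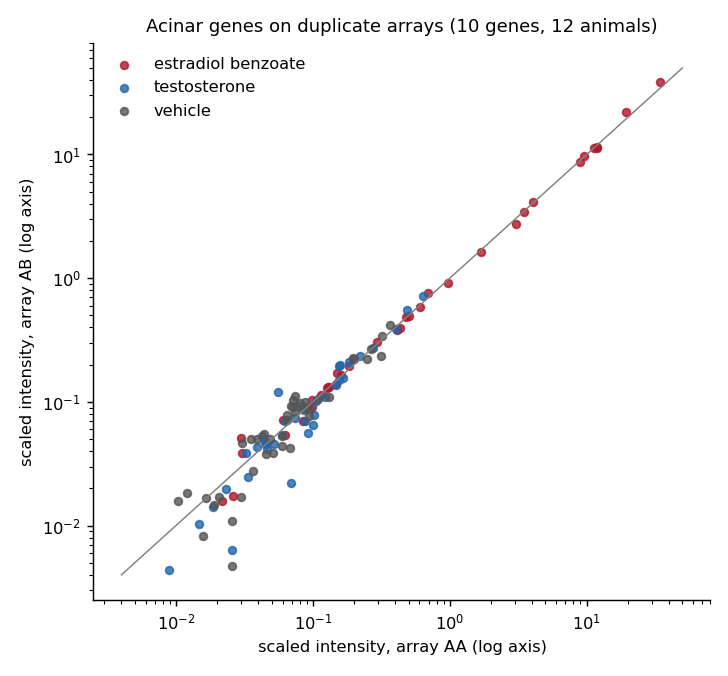
Level on array AB against level on array AA for the 10 genes in the 12 rats, on log axes of scaled intensity, with 1 point per gene and animal coloured by group. Points of estradiol benzoate animal 3 lie close to the line of equality, and the scatter is widest among the dimmest values.

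Estradiol benzoate animals had higher mean log2 levels than vehicle animals for all 10 genes, with a median difference of 2.75. Over the 6371 genes tested the median difference was -0.01. The differences ran from 1.53 ± 0.97 (SE) for Ctrl to 4.73 ± 1.87 for Pnlip, with 3.32 ± 1.15 for Cela1, 4.20 ± 1.63 for Pla2g1b and 4.08 ± 1.54 for Clps (n = 4 rats in each group). These errors are large because the estradiol benzoate animals differ so much among themselves: Pnlip averaged 0.01 ± 4.16 in estradiol benzoate animals and -4.72 ± 2.09 in vehicle animals on the log2 scale (SD, n = 4 each). Without estradiol benzoate animal 3 the median difference was 1.30, with all 10 genes still on the positive side. Estradiol benzoate animal 8, the next highest rat, remained in that comparison. In limma, at an adjusted p under 0.05, 0 of the 10 genes were called, and 0% of all probes tested were (1376 of 10228 had an unadjusted p under 0.05). In 1 of the 10, Cela1, all estradiol benzoate animals were above all vehicle animals, which held for 3.53% of all probes tested. Since these genes were chosen on these values, nothing is read from the counts.

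Testosterone animals differed little from vehicle animals on average. The difference was positive for 7 of 10 genes and its median was 0.31, beside a median of -0.01 over all genes. It ranged from -0.38 ± 0.97 (SE) for Ctrl to 0.80 ± 1.87 for Pnlip. The fit shares its estimate of spread over all groups, so these errors also carry the spread of the estradiol benzoate animals. For Ctrl the SD of log2 levels was 0.47 in testosterone animals and 0.15 in vehicle animals. One rat set that direction: without testosterone animal 6 the difference was positive for 1 of 10 genes and the median was -0.37. Of the 10 genes 0 were called, against 0.0489% of all probes tested (1437 had an unadjusted p under 0.05), and 0 had every testosterone animal above every vehicle animal, against 2.45% of all. Estradiol benzoate animals were above testosterone animals on average for all 10 genes, by a median of 2.30 on the log2 scale and by 1.66 ± 1.04 (Reg1a) to 4.14 ± 1.63 (Pla2g1b). Without estradiol benzoate animal 3 this median was 0.85. Again 0 of 10 genes were called, against 0.0293% of all (422 had an unadjusted p under 0.05), and for 0 of 10 were the groups apart, against 1.88% of all. The comparisons share animals: both hormone groups were set against the same 4 vehicle rats.

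**Figure D3:**
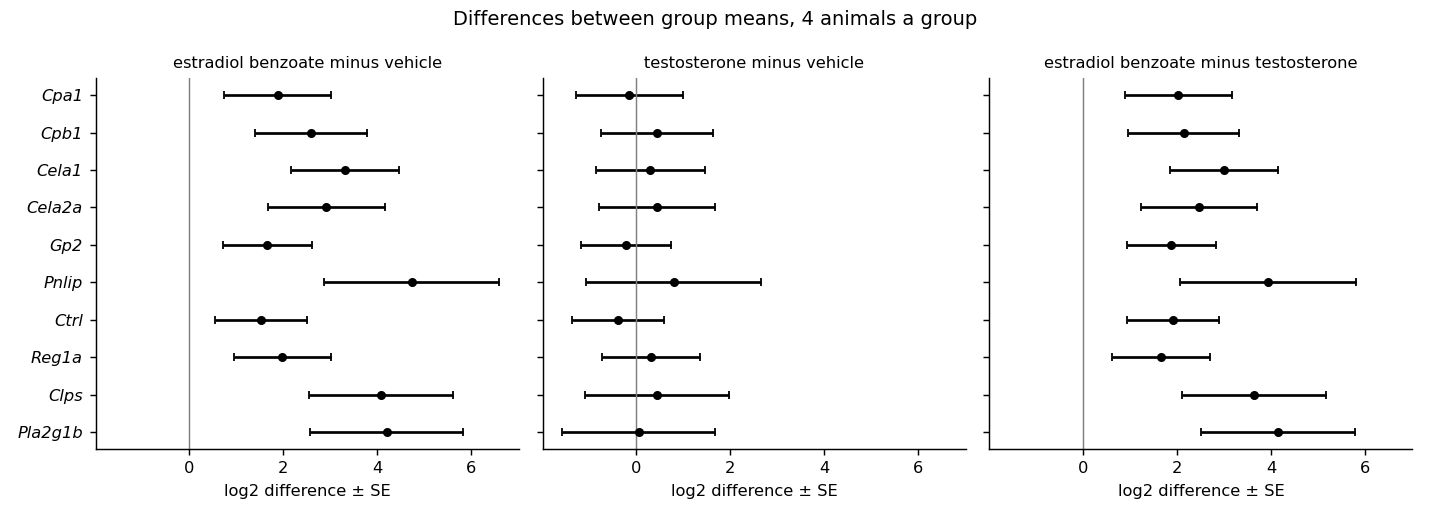
Difference in mean log2 level with its standard error for each of the 10 genes, for estradiol benzoate minus vehicle, testosterone minus vehicle and estradiol benzoate minus testosterone. The standard errors rest on a spread shared by all groups. Both comparisons of estradiol benzoate lie above 0 for all 10 genes, with medians of 2.75 and 2.30. Testosterone minus vehicle scatters around 0.

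The next animals held a few percent of the levels in estradiol benzoate animal 3. Estradiol benzoate animal 8 had 3.47% (Reg1a) to 7.24% (Gp2) of the level of animal 3, with a median of 4.65%. After the median vehicle level of each gene was subtracted from both, animal 8 had 1.96% to 5.57% of the excess in animal 3, with a median of 4.14%. For testosterone animal 6 the share of that excess was 0.0375% (Ctrl) to 2.72% (Cpb1), with a median of 1.42%, and for estradiol benzoate animal 5 it was 0.343% (Gp2) to 1.33% (Pnlip), with a median of 0.944%. In vehicle animal 8 it was 0.126% (Cela1) to 1.10% (Cpb1), with a median of 0.254%. Vehicle animal 8 is itself part of the vehicle median that was subtracted, so its small shares depend partly on its own values. For Cela1 vehicle animal 5 had a larger share (0.130%). The shares spanned less than 3-fold over the 10 genes in estradiol benzoate animal 8 and spread more widely in the other 3 animals. In these bulk samples a larger number of acinar cells in the dissected piece and more acinar RNA per cell cannot be told apart.

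**Figure D4:**
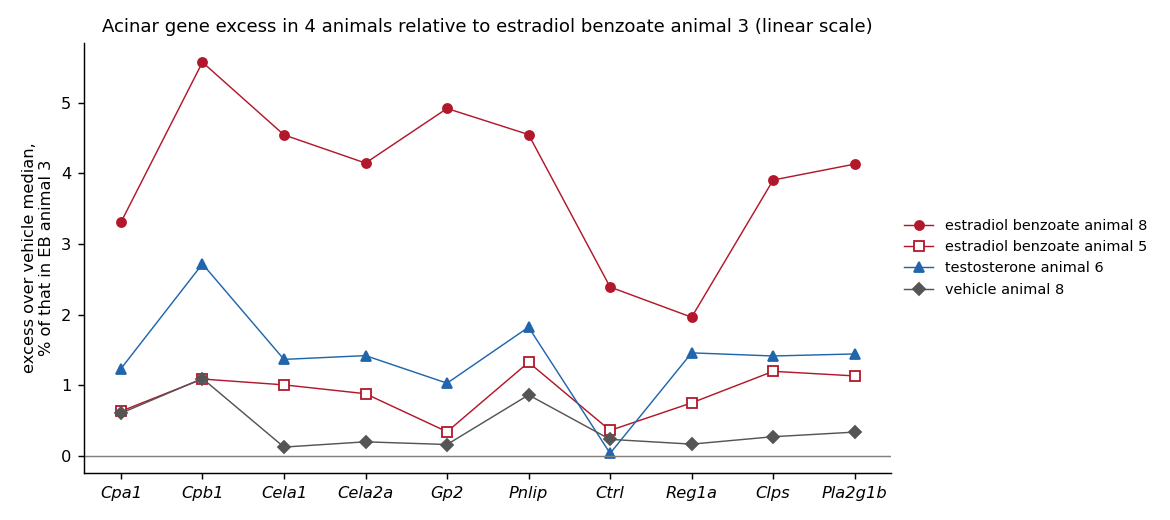
Excess of each gene's level over its median in the vehicle animals, as a percentage of the same excess in estradiol benzoate animal 3, for the 4 next highest animals, with 1 point per gene on a linear axis and lines that join the genes of an animal. The median share is 4.14% in estradiol benzoate animal 8, 1.42% in testosterone animal 6 and 0.944% in estradiol benzoate animal 5. It is 0.254% in vehicle animal 8, which is itself part of the vehicle median.

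Across the 12 rats the log2 levels of the 10 genes varied together. The median Pearson correlation over the 45 pairs of genes was 0.96, from 0.84 for Pnlip with Ctrl to 0.99 for Clps with Pla2g1b, and the median Spearman correlation was 0.755. Without estradiol benzoate animal 3 the median Pearson correlation was 0.886 and the median Spearman correlation 0.682 (n = 11 rats). Leaving out estradiol benzoate animal 8 as well, the other animal farthest from the median, the median Pearson correlation was 0.788 (n = 10 rats). The lowest Pearson pair was then 0.156, for Cela1 with Ctrl. The median Spearman correlation was 0.576, with a lowest pair of 0.188 for Gp2 with Pnlip. The points share their arrays and hybridisations, and the genes were selected for this pattern, so these values carry no test.

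Other genes whose pattern over the 12 rats was most like the mean of the 10 were found among 7026 candidate probes with a single symbol. The 4 most alike were acinar products as well: Zg16, a protein of the zymogen granule (r = 0.963), Pnliprp1, a relative of the lipase (r = 0.957), Amy2a3, a pancreatic amylase (r = 0.944), and Sycn, syncollin of the granule membrane (r = 0.930). In estradiol benzoate animal 3 Sycn had a level of 5.22, against 0.142 to 0.378 in the other 11 rats, and Zg16 had 2.18, against 0.00443 to 0.0829. The next were Ldhb (0.885), Dhrs7 (0.868), Ier2 (0.859), Nrn1 (0.844), Tnnt2 (0.842) and Fosb (0.817). When estradiol benzoate animal 3 was left out, the 10 most alike were Zbed3 (0.883), Ciita (0.865), Hdhd5 (0.862), Zg16 (0.861), Mmp10 (0.856), Gripap1 (0.846), Pdgfrb (0.836), Zp1 (0.835), Cidea (0.831) and Tcp11l2 (0.825). Zg16 was the one gene in both lists, and r exceeded 0.9 for 4 candidates with 12 animals and for 0 without animal 3. Over all 12 rats the rest of this second list had r from -0.112 (Ciita) to 0.728 (Cidea). Without animal 3, Tnnt2 had r = 0.085, while Ldhb, Dhrs7, Ier2, Nrn1 and Fosb had 0.668 to 0.781. Both lists hold the highest values among 7026 candidates, so nothing further is read from the size of r.

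Further acinar products, on a list that leaves out the 10 genes, were measured for 10 of 32. Estradiol benzoate minus vehicle was positive for 8 of these 10 and negative for 2, with a median of 0.31 and 0 called. The list was uneven. Zg16, Amy2a3, Pnliprp1 and Sycn had differences of 3.14 ± 1.32 (SE), 2.85 ± 1.14, 1.75 ± 1.17 and 1.66 ± 0.78. Spink1, the trypsin inhibitor of acinar cells, had 0.0797 in estradiol benzoate animal 3, within the range of the other rats (0.0613 to 0.105). That level was below the lowest vehicle animal (0.0936), as were those of all testosterone animals. Tff2, a trefoil peptide, had 0.577 in estradiol benzoate animal 3, against 0.296 to 0.501 in the other rats. Serpini2, a serine protease inhibitor of the pancreas, had 2.41 there, within the range of the other rats (1.62 to 2.52). Of the regulators and receptors of acinar cells 2 of 6 were measured: Bhlha15, a transcription factor of secretory cells, had 0.968 in estradiol benzoate animal 3, against 0.977 to 1.27 in the others, and Nr5a2, a nuclear receptor that drives acinar genes, had 0.0155, within the range of the others (0.00254 to 0.0452).

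The islet and ductal genes that were measured did not stand apart in estradiol benzoate animal 3. Ins1 and Ins2, the insulin genes, were not among them, nor were the ductal genes Krt19, Krt7, Cftr and Sox9. Islet and duct tissue as such is therefore not judged here. Of 28 islet genes 12 were measured, and their summed level was 6.04 in estradiol benzoate animal 3, against 5.79 to 7.40 in the other 11 rats. Ppy, pancreatic polypeptide, had 2.12 in estradiol benzoate animal 3, against 1.89 to 2.98 in the others, while Pcsk2, a prohormone-cleaving enzyme, had 1.33, against 1.19 to 1.59. Nkx6-1, an islet transcription factor, and Kcnj11, a potassium channel subunit of the beta cell, likewise lay within the other rats' range. For the ductal list, 4 of 10 genes were measured (Sctr, Car2, Slc4a4 and Onecut1), with a summed level of 0.846 in estradiol benzoate animal 3, against 0.760 to 1.15 in the others. Estradiol benzoate minus vehicle was positive for 8 of 12 islet genes and for 2 of 4 ductal genes, with medians of 0.12 and 0.06 and 0 called.

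Markers of the vessel and of its other neighbours give the setting. Of 14 artery wall genes 6 were measured, and Acta2 and Myh11, which define smooth muscle, had no probe with a single symbol here. Cnn1, a smooth muscle protein, had 28.2 in estradiol benzoate animal 3, against 28.8 to 47.4 in the other rats, and Pecam1, an endothelial surface protein, had 23.3, against 26.9 to 34.0. The summed artery wall level was 68.7 in that rat and 78.6 to 99.8 in the others, a sum carried by the bright probes of Cnn1 and Pecam1. With every gene weighted alike, as a mean centred log2 level, the list had -0.22 in estradiol benzoate animal 3 and was lowest in testosterone animal 8, with -0.28. Estradiol benzoate minus vehicle was negative for 5 of these 6 genes, with a median of -0.15 and 0 called.

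Among the neighbouring tissues, the mesothelium, the lining of the peritoneum, had 3 of 7 genes measured. Msln, mesothelin, had 2.05 in estradiol benzoate animal 3, 1.13 in vehicle animal 8, 0.877 in estradiol benzoate animal 8 and 0.260 to 0.780 in the other 9 rats, and Wt1, a transcription factor of that lining, had 0.124, 0.120 and 0.0973 in the same 3 rats, against 0.0773 to 0.115 in the other 9. Msln did not follow the acinar genes in 2 of the high rats. Its level was lowest of all in estradiol benzoate animal 5 (0.260). In testosterone animal 6 it was 0.512, below vehicle animals 3, 4 and 5 (0.682, 0.667 and 0.780). The summed mesothelial level was 6.67 in estradiol benzoate animal 3, against 3.11 to 4.96 in the others. Gpm6a, the brightest probe of this list, had 4.50 in estradiol benzoate animal 3, against 2.35 to 4.38 in the other rats. With every gene weighted alike, as a mean centred log2 level, the mesothelial list was highest in estradiol benzoate animal 3 (0.84). Vehicle animal 8 was next, with 0.44. The intestinal list (7 of 14 measured) had a summed level of 5.85 in estradiol benzoate animal 3, within the other rats' 4.74 to 6.89. For white fat (6 of 12) it was 80.7, against 62.8 to 96.4. The lymphocyte list (7 of 12) had 1.06 in that rat, against 0.632 to 1.41 in the others, and estradiol benzoate minus vehicle was positive for 7 of 7, with a median of 0.61 and 0 called. The liver list (10 of 18) had its highest sum in a different rat, vehicle animal 5 (39.7), against 3.55 in estradiol benzoate animal 3. In vehicle animals 3, 4 and 8 the sum was 7.42, 4.97 and 2.24, and in the hormone-treated rats 1.83 to 3.96. For 9 of 10 liver genes estradiol benzoate minus vehicle was negative, with a median of -1.11 and 0 called. Testosterone minus vehicle was negative for 9 of 10 as well, with a median of -1.40 and 0 called. For the lymphocyte genes testosterone minus vehicle was positive for 7 of 7, with a median of 0.54 and 0 called. The part that neighbouring tissue has in the acinar levels was not tested.

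**Figure D5:**
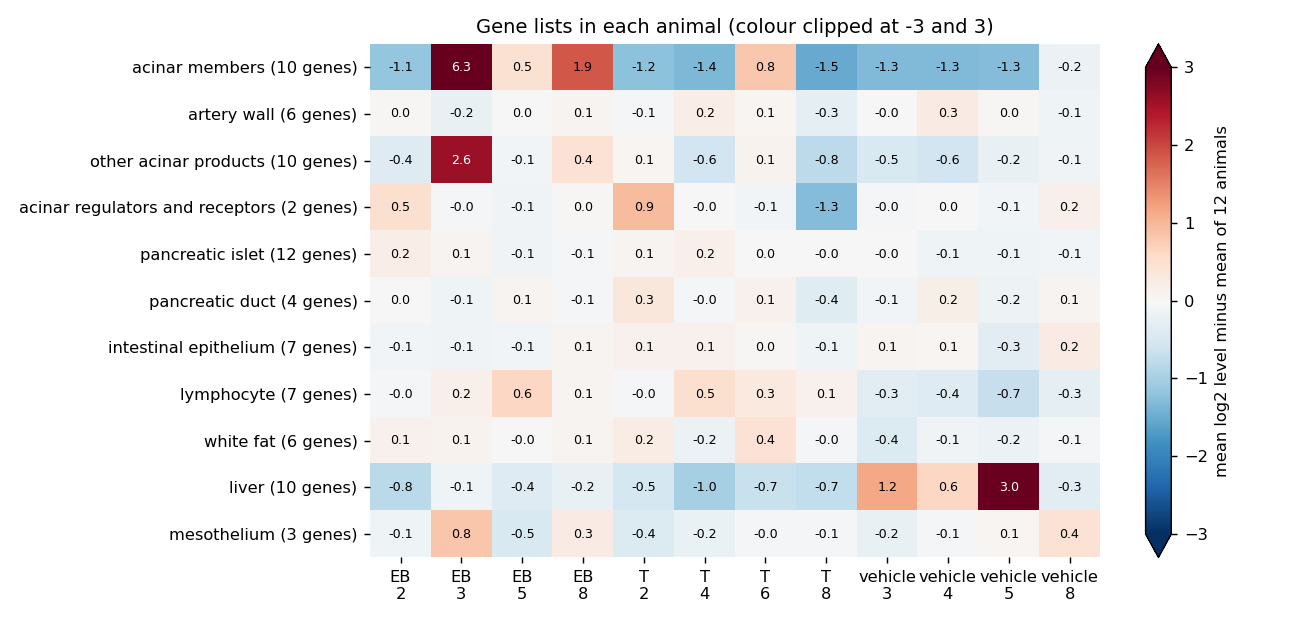
Mean log2 level of each marker list in each animal, with every gene centred on its mean over the 12 rats, drawn as coloured cells with the 10 acinar genes in the top row and the groups from left to right as estradiol benzoate (EB), testosterone (T) and vehicle. Estradiol benzoate animal 3 stands apart for the acinar genes (6.25) and not for the measured genes of the islet or ductal lists.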

How the data were processed

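Mesenteric artery RNA of 12 rats was measured on 24 one-colour CodeLink arrays, 2 per animal. Per the labels' protocols, cRNA marked with biotin was made from 2 µg of total RNA, and 10 µg of it went on an array. The deposited values are linear spot intensity, already scaled by the authors, as the array medians just below 1 show. The scanner software and background correction are not given in the sources used. Array values blank or at or below 0 (327 values over all arrays were at or below 0) were set missing, log2 of the deposited intensity was taken with no pseudocount, and the 2 arrays of an animal were averaged. Blank spots numbered 152 to 665 per array, and duplicate arrays correlated at 0.976 to 0.993.

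Probes with values in at least 3 animals of each group (10228 of 10399) were fitted as group means with limma 3.58.1 (lmFit and eBayes) in R 4.3.3, with Benjamini-Hochberg adjustment over all of them and calls at an adjusted p under 0.05. The fit was tested on simulated data. A single symbol was given for 7294 probes by the platform annotation, several for 88 and none for 3017; all 10 acinar genes matched RefSeq by gene ID. Where several probes had one symbol, the brightest on average was used.

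The members, the marker lists and the tests were chosen with earlier results of these data known. Named genes are all members, all measured artery wall genes and the 4 genes of highest mean of each other list where the text names them. The 10 most similar genes by Pearson correlation with the members' mean, with and without the highest animal, are named as well. Reg3a, Fabp6 and Rln1 were named after their values were seen. The number of animals limits the precision. Alternatives covered each array alone, averaging on the linear scale, quantile normalization, a pseudocount of 0.1, other filters, a replicate block and leaving out each animal.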

Additional observations from a re-analysis of the deposited data

Results flagged for a closer look

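In each group of 4 rats, the highest or lowest animal was set apart where its gap to the nearest other animal exceeded the 95% Dixon value. Of 33 groups examined, 8 had such an animal. In values that were not selected, this limit is passed by chance in about 5% of groups, but these genes were chosen for animals that stand apart and for varying together, so the 8 are a description of the animals and not a test. Testosterone animal 6 lay above the other testosterone rats for Gp2, with a log2 level of -2.81, for Pnlip, with -0.56, for Reg1a, with -3.54, and for Clps, with -2.71. Its mean over the 10 genes, on the centred log2 scale, was 0.80. Vehicle animal 8 lay above the other vehicle rats for Cpb1, with a log2 level of -2.24, and for Pnlip, with -1.59, and its mean over the 10 genes was -0.18. Estradiol benzoate animal 3 did not pass this limit in its own group, whose range it sets and in which animals 2, 5 and 8 are also spread out.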

How the results depend on the processing

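Estradiol benzoate minus vehicle and estradiol benzoate minus testosterone were positive for all 10 genes under all 20 alternatives each. No alternative left out more than 1 animal, so estradiol benzoate animal 3 or animal 8 stayed in every one. The differences without both were not computed. Because the 10 genes vary together, their signs are not separate results. Their median differences ran from 2.05 to 3.14 and from 1.82 to 2.36, and from 1.30 to 3.73 and from 0.85 to 3.28 when each animal was left out, lowest without estradiol benzoate animal 3. For testosterone minus vehicle the median ran from 0.19 to 0.69, and from -0.37 to 0.54 when an animal was left out. The number of positive genes (7) ran from 1 to 8 when an animal was left out, lowest without testosterone animal 6, and from 6 to 10 under the other alternatives, with 10 under the replicate block. With the replicate block by animal number the medians were 3.14, 0.69 and 2.14; the numbers were not taken to pair the animals, since only 2 of 7 same-numbered pairs had correlated deviations over 0.1 (-0.12 to 0.30). The median correlation of gene pairs (0.961) was 0.755 by Spearman, 0.9998 on linear values, 0.788 without the 2 farthest animals, chosen after seeing the data, and 0.886 to 0.965 with an animal left out.

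Counts of called probes over the whole table were unstable. For estradiol benzoate minus vehicle (0) they were 1 on array AA alone, 5 without the dimmest 10% of probes, and 0 to 2 with an animal left out (2 without vehicle animal 5, 1 without estradiol benzoate animal 5). For testosterone minus vehicle (5) they were 3 on array AA alone, 8 after quantile normalization, 0 with the replicate block, and 0 to 45 with an animal left out: 45 without vehicle animal 5, 11 without vehicle animal 8, 3 without estradiol benzoate animal 8, 1 without estradiol benzoate animal 3 or testosterone animals 4 or 8, and 0 without testosterone animals 2 or 6 or vehicle animal 3. For estradiol benzoate minus testosterone (3) they were 1 on array AA alone, 0 on array AB alone, 0 after quantile normalization, 0 with the replicate block, and 0 to 1 with an animal left out. The cause was not tested. Dim signals limit the fold changes of the low animals.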

Other observations

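Besides the 10 acinar genes, 8 of the tested probes had estradiol benzoate animal 3 at least 4-fold above every other rat. Reg3a, Fabp6 and Rln1 among them were named after their values were seen. Acinar products of the list above make up 5 of the 8: Zg16 (26.3-fold over the next animal), Amy2a3 (16.9-fold), Sycn (13.8-fold), Pnliprp1 (13.2-fold) and Reg3a (5.23-fold). The others are Fabp6, the bile acid binding protein of the ileum (11.1-fold), Rln1, a relaxin hormone (6.99-fold), and Tnnt2, cardiac troponin T (5.40-fold).

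Fabp6 did not follow the acinar genes in the remaining rats. It had 0.258, 2.87, 0.0770 and 0.0229 in estradiol benzoate animals 2, 3, 5 and 8, 0.147, 0.0078, 0.0143 and 0.0143 in testosterone animals 2, 4, 6 and 8, and 0.140, 0.142, 0.163 and 0.0111 in vehicle animals 3, 4, 5 and 8. Estradiol benzoate animal 8, testosterone animal 6 and vehicle animal 8, which were high for acinar genes, were among the low animals for Fabp6.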
